A study of Mus musculus with 6 samples.

Results

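The interferon regulatory factors are transcription factors that switch on interferon genes and the genes that respond to interferon. The 8 members described here are the genes Irf1, Irf2, Irf3, Irf4, Irf5, Irf7, Irf8 and Irf9, chosen by symbol from a count table of 14943 genes, and all 8 were in the table and passed the filter on low counts. The members share a DNA-binding domain that reads GAAA repeats and differ in what activates them. IRF3, IRF5 and IRF7 lie in the cytoplasm until kinases downstream of nucleic acid or endotoxin receptors phosphorylate them, IRF9 is part of the complex ISGF3 that type I interferon activates, IRF1 is made on interferon gamma signalling and is opposed by IRF2 at shared sites, and IRF4 and IRF8 direct the development of lymphoid and myeloid cells together with partner proteins. The last pair is made mainly in blood-derived cells, and IRF4 is also present in fat cells.

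RNA was sequenced from the peritoneum, the lining of the abdominal cavity, of wild-type C57BL/6J males 8 weeks old. The 3 EPS libraries stand for a model of encapsulating peritoneal sclerosis, in which fibrous tissue wraps the bowel. These mice had peritoneal dialysis solution (4.25%, 100 mL/kg) put into the abdomen each day together with SHS (0.3 mL, an agent the labels do not spell out), and LPS (lipopolysaccharide, the endotoxin of bacteria) at 4 mg/kg every week. The 3 control libraries are from mice injected with saline of the same volume, and all mice were killed in week 3. The agents were given together, so their separate parts cannot be told apart. Nothing in the labels says whether libraries of a group are separate animals, and if they are not, p-values measure a spread that may be technical.

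Libraries held between 15419232 and 17684229 counts. In EPS 1, 14.7% of counts fell on 12 genes of the exocrine pancreas, against 0.0222% in EPS 2, 0.0682% in EPS 3 and 0.0306% to 0.349% in the controls. Controls 1 and 2 were nearer to each other (mean chi-square per gene of 4.41) than either was to control 3 (15.9 and 16.4). They differed by more than sampling noise, which would give about 1, and were counted as 2 samples. Calls, log2 fold changes and ratios of the members, and pathway list counts, were also computed without EPS 1 and with controls 1 and 2 averaged. The 7 calls among the members held both ways. Levels per length, shares and summed levels were not computed in these ways. Markers of the mesothelium, the surface layer of the peritoneum, were present, with a summed level of 41.9 to 215 CPM (read counts scaled to library size, with TMM factors) in EPS and 130 to 205 CPM in controls, and none of the 8 markers was called. The 8 fat cell markers summed to 2198 to 3744 CPM in EPS and 23610 to 24230 CPM in controls.

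Of the 8 members, 7 rose in EPS and Irf3 did not pass the test. Calls are those of edgeR's quasi-likelihood test over 13980 genes, with adjusted p below 0.05. Of all genes tested, 59.6% were called, 29.2% higher and 30.4% lower. The median log2 fold change was 1.36 over the members and -0.02 over all genes tested. In the 7 called members, every EPS library lay above every control library, which was so for 33.1% of all genes tested. The increases ran from 1.86-fold for Irf2 to 15.8-fold for Irf8. The tissue was measured in bulk, so more cells of a type and more RNA per cell cannot be told apart.

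**Figure D1:**
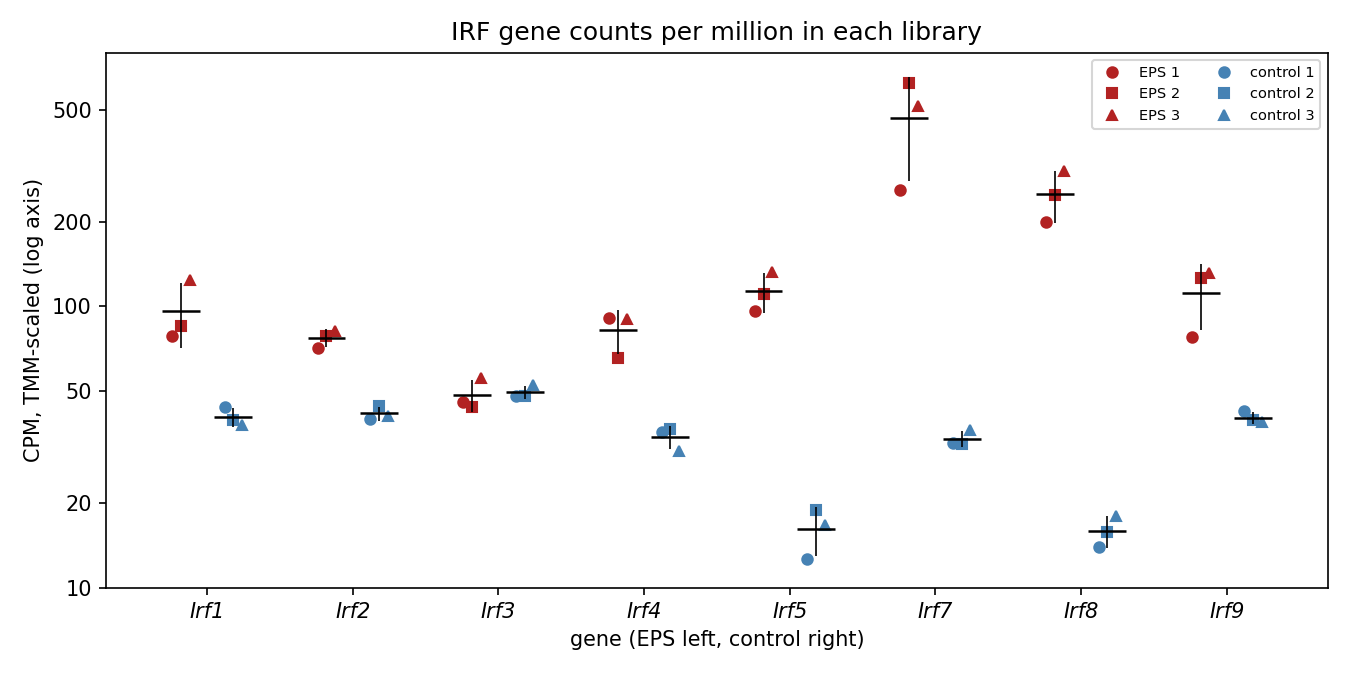
CPM of each IRF gene in the 6 libraries, on a log axis, with EPS in red at the left and control in blue at the right of each gene; black bars are the mean and SD of 3 libraries. Irf3 overlaps between the groups at 43.8 to 55.6 CPM in EPS and 48.0 to 52.4 CPM in controls, and the other 7 genes lie higher in every EPS library.

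The stretches of DNA just before the starts of 4 members are shown because these sites are where interferon-activated factors are known to act on Irf1 and Irf8. The sequences are from RefSeq (GRCm38.p6) and run from 250 bases before the start up to it, in the direction of transcription: chr11:53769764-53770013 (plus strand) for Irf1, chr8:46739495-46739744 (plus strand) for Irf2, chr8:120736108-120736357 (plus strand) for Irf8 and chr7:141266425-141266674 (minus strand) for Irf7. Capitals mark matches to the GAS element of interferon gamma signalling (letters TTCNNNGAA) or to the core of the ISRE bound by IRF proteins and ISGF3 (GAAA, any 2 bases, GAAA).
Irf1: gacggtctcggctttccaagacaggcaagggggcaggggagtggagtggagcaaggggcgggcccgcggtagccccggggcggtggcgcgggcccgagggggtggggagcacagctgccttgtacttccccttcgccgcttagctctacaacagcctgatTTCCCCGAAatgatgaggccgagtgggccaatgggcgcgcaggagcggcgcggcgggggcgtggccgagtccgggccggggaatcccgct
Irf2: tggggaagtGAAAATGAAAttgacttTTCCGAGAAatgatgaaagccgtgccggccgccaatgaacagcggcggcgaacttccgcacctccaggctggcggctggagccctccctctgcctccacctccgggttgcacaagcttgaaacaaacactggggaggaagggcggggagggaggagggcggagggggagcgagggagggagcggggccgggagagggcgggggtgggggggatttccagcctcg
Irf8: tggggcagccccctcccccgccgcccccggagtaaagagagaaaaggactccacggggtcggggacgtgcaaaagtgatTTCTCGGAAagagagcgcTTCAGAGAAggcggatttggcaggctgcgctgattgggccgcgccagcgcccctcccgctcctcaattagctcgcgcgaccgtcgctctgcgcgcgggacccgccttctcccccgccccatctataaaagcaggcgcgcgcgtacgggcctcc
Irf7: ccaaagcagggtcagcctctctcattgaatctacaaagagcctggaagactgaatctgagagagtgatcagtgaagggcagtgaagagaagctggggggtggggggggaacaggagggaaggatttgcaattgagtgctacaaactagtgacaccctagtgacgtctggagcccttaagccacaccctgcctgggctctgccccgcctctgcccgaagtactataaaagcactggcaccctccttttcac
Irf1 held 1 GAS match, 90 to 82 bases before its start. Irf8 held 2, at 171 to 163 and 153 to 145 bases before it. Irf2 held a GAS match (224 to 216 bases before the start) next to an ISRE core match (241 to 232 bases before it). The Irf7 stretch held no match to either, nor did the RefSeq promoters of Irf3, Irf4, Irf5 and Irf9 or the second promoters listed for Irf1, Irf8 and Irf9. Both strands of 300 bases per promoter, 250 before and 50 after the start, were searched. A GAS match was found in 8.30% and an ISRE core match in 3.44% of the 32851 promoters of the table. The kappaB letters (GGGA, any base, TTTCC), found in 0.411% of promoters, were in none of the members'. Only these exact letters were searched, and looser forms of the kappaB site may lie in the stretches shown. A match is a run of letters and not a measured binding site.

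IRF7 and IRF3 are the pair through which viral nucleic acids and endotoxin receptors induce type I interferon. Irf7 (chromosome 7, 141262706 to 141266481, minus strand) had 260.3, 624 and 517 CPM in EPS 1 to 3, against 32.6, 32.4 and 36.4 CPM in controls 1 to 3. EPS 1 was the lowest EPS library, 2.40-fold below EPS 2, and was still 7.70-fold above the control mean. Irf7 rose 13.8-fold (log2 fold change 3.79 ± 0.32, SE; edgeR adjusted p = 5.58e-05), which only 4.60% of the genes tested exceeded. Irf3 (chromosome 7, 44997648 to 45002848, plus strand), the member held ready in most cell types, had 45.8, 43.8 and 55.6 CPM in EPS, against 48.0, 48.1 and 52.4 CPM in controls. Its groups overlapped, with a log2 fold change of -0.03 ± 0.12 (edgeR adjusted p = 0.832). With library totals as the only scaling, which raises the log2 fold change of the median gene by 0.425, Irf3 stood at 0.40 and was not called (adjusted p = 0.111).

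IRF5 acts after Toll-like receptors, mainly in macrophages and B cells, on genes of inflammatory cytokines. Irf5 (chromosome 6, 29526625 to 29541871, plus strand) had 96.6, 110.2 and 133 CPM in EPS, against 12.6, 18.9 and 16.7 CPM in controls. The groups were far apart, and the spread was alike within each, 1.37-fold over the EPS libraries and 1.49-fold over the controls. The increase was 7.03-fold (log2 fold change 2.81 ± 0.18; edgeR adjusted p = 9.53e-06).

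IRF9 is the DNA-binding subunit of ISGF3. Irf9 (chromosome 14, 55603571 to 55610030, plus strand) had 77.9, 126 and 131 CPM in EPS, against 42.4, 39.4 and 38.9 CPM in controls. EPS 1 was again the lowest EPS library, at 1.94-fold the control mean, with EPS 2 and EPS 3 at 3.14-fold and 3.25-fold. Irf9 rose 2.78-fold (log2 fold change 1.47 ± 0.19; edgeR adjusted p = 3.84e-04).

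IRF1 activates genes of antigen presentation and chemokines after interferon gamma, and IRF2 can hold the same sites without activating them. Irf1 (chromosome 11, 53770014 to 53778374, plus strand) had 78.2, 85.5 and 124 CPM in EPS, against 43.9, 39.4 and 37.7 CPM in controls. EPS 3 stood above the other EPS libraries, and every EPS library was at least 1.94-fold above the control mean. Irf2 (chromosome 8, 46739732 to 46847458, plus strand) had 71.2, 78.8 and 81.9 CPM in EPS, against 39.8, 44.3 and 40.7 CPM in controls, the tightest EPS values of the 8 members (1.15-fold from lowest to highest). Irf1 rose 2.38-fold (log2 fold change 1.25 ± 0.18; edgeR adjusted p = 5.67e-04) and Irf2 rose 1.86-fold (0.89 ± 0.10; adjusted p = 1.26e-04).

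IRF8 is required for plasmacytoid and type 1 conventional dendritic cells and for monocytes, and is also made in B cells. Irf8 (chromosome 8, 120736358 to 120756694, plus strand) had 199, 249 and 303 CPM in EPS, against 13.9, 15.7 and 17.99 CPM in controls. Its EPS libraries stood 12.5-fold, 15.7-fold and 19.1-fold above the control mean. Irf8 rose 15.8-fold (log2 fold change 3.98 ± 0.19; edgeR adjusted p = 2.79e-06), an estimate that differs from that of Irf7 by less than the standard error of the Irf7 value. IRF4 drives plasma cell formation, T helper differentiation and the alternative activation of macrophages. Irf4 (chromosome 13, 30749226 to 30766976, plus strand) had 91.1, 65.5 and 90.2 CPM in EPS, against 35.8, 36.7 and 30.7 CPM in controls. EPS 2 was its lowest EPS library, whereas EPS 1 was the lowest for Irf1, Irf2, Irf5, Irf7, Irf8 and Irf9. Irf4 rose 2.39-fold (log2 fold change 1.26 ± 0.15; edgeR adjusted p = 1.93e-04).

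**Figure D2:**
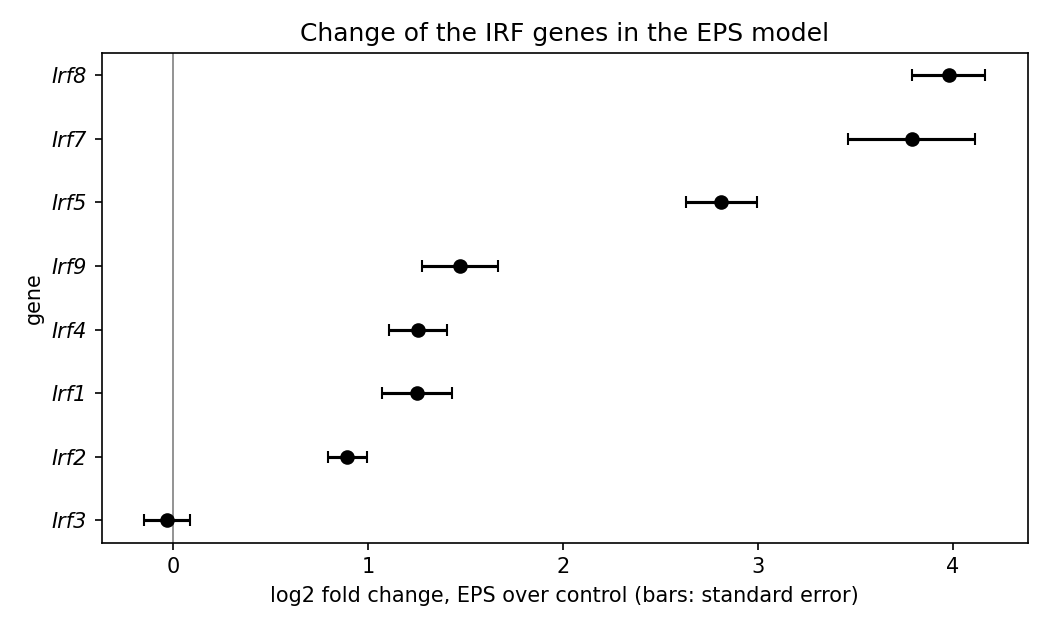
The log2 fold change of each IRF gene, EPS over control, with its standard error as a bar, from edgeR's fit over all genes. Irf8, Irf7 and Irf5 stand between 2.81 and 3.98, Irf9, Irf4, Irf1 and Irf2 between 0.89 and 1.47, and Irf3 at -0.03.

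The sources used here do not say whether reads were counted by strand, so genes that overlap a member could share reads with it. Tnpo3, a nuclear import gene, shares 411 exon bases with Irf5 on the other strand and had 40.9 to 59.1 CPM in EPS and 51.8 to 58.9 CPM in controls (log2 fold change -0.19 ± 0.15, edgeR adjusted p = 0.282). Rnf31, a ubiquitin ligase gene, shares 123 exon bases with Irf9 on the same strand and rose by 0.56 ± 0.14 on the log2 scale, less than Irf9. Bcl2l12 shares 88 exon bases with Irf3 and stood at 8.32 to 9.81 CPM in EPS and 7.67 to 11.03 CPM in controls (0.02 ± 0.20, not called), and Phrf1 shares 45 with Irf7 and rose by 0.34 ± 0.11. Gm17334, which shares 135 exon bases with Irf1, was not analysed here. The part of these overlaps in the members' values was not tested.

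To set the members beside each other, CPM were divided by the length of each gene's annotated exons in kilobases. On this scale of levels per length, Irf7 came first in EPS, at 124 ± 49.4 CPM per kb, and after Irf3 and Irf1 in controls, at 8.95 ± 0.608 CPM per kb (SD, n = 3 each). Irf3 came last but for Irf2 in EPS, at 14.1 ± 1.83 CPM per kb, and first in controls, at 14.4 ± 0.728 CPM per kb. Irf8 came after Irf7 and Irf5 in EPS, at 35.5 ± 7.35 CPM per kb, and the lowest in controls, at 2.25 ± 0.289 CPM per kb. In EPS the order by level per length was Irf7, Irf5, Irf8, Irf1, Irf9, Irf4, Irf3, Irf2, and the neighbours from Irf5 down to Irf3 overlapped in range. In controls the order was Irf3, Irf1, Irf7, Irf9, Irf4, Irf2, Irf5, Irf8, where Irf1 and Irf7, Irf9 and Irf4, and Irf2 and Irf5 overlapped. With the longest transcript as the length, Irf7 stayed first and Irf8 came second in EPS, Irf3 stayed first and Irf8 last in controls, and the order between these ends changed. That length moved 4 members by over 1.5 times: Irf8 stood at 72.2 CPM per kb in EPS and 4.58 in controls, Irf1 at 44.9 in EPS and 18.9 in controls, Irf3 at 23.8 in EPS and 24.4 in controls, and Irf2 at 19.5 in EPS and 10.5 in controls.

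Summed over the 8 genes, the level per length was 206, 320.1 and 327 CPM per kb in EPS 1 to 3, against 60.5, 62.0 and 61.6 CPM per kb in controls 1 to 3. Irf7 made up 33.5%, 51.6% and 41.9% of that sum in EPS, against 14.3%, 13.8% and 15.6% in controls. Irf3 made up 6.46%, 3.98% and 4.95% in EPS, against 23.1%, 22.6% and 24.7% in controls. Irf5 and Irf8 gained share as well, with means of 14.0% ± 2.14 and 12.6% ± 1.40 in EPS and of 9.01% ± 1.68 and 3.67% ± 0.441 in controls. Irf1, Irf2, Irf4 and Irf9 took a smaller share of the sum in EPS (3.80% to 8.61% on average) than in controls (9.16% to 16.5%), although each of these genes rose. The share of Irf9 was the most even of all in EPS, at 7.26% ± 0.218. With the longest transcript as the length, the mean share of Irf7 was 34.98% in EPS and 11.15% in controls. That of Irf8 was then 18.13% in EPS and 4.89% in controls.

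**Figure D3:**
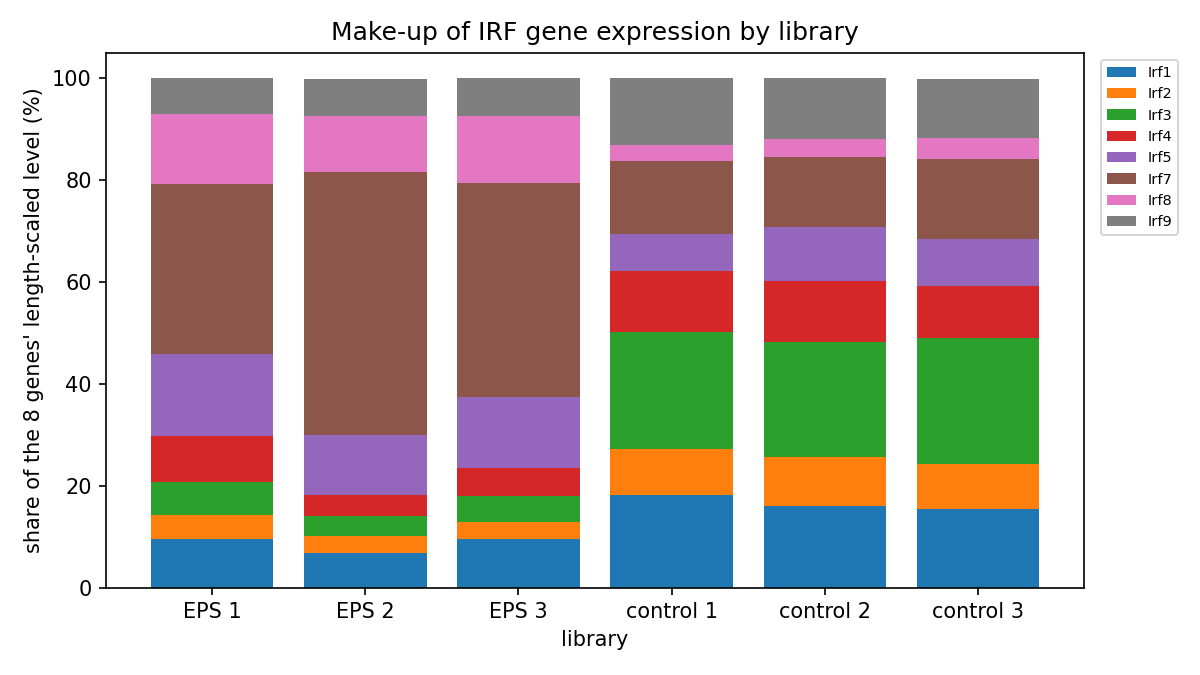
Stacked bars of the share (%) that each IRF gene takes of the 8 genes' summed level per length, 3 EPS libraries at the left and 3 control libraries at the right. Irf7 is the largest part of every EPS bar (33.5% to 51.6%) and Irf3 of every control bar (22.6% to 24.7%).

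Ratios of counts within a library do not depend on how libraries are scaled, and 5 pairs of members were compared in this way. The Irf7:Irf3 ratio was 5.68, 14.2 and 9.29 in EPS, against 0.679, 0.673 and 0.696 in controls, a difference of 3.73 on the log2 scale. The Irf4:Irf8 ratio was 0.458, 0.263 and 0.298 in EPS, against 2.57, 2.34 and 1.71 in controls, so more reads came from Irf8 than from Irf4 in every EPS library and fewer in every control library (difference -2.72 on the log2 scale). The Irf9:Irf3 and Irf5:Irf3 ratios were higher in every EPS library, by 1.47 and 2.86 on the log2 scale. These 4 pairs each had an exact two-sided permutation p = 0.1 (0.125 after Benjamini-Hochberg adjustment over 5), the smallest that 3 against 3 libraries allow. The Irf1:Irf2 ratio was 1.10, 1.09 and 1.52 in EPS, against 1.10, 0.890 and 0.925 in controls, and the groups overlapped (log2 difference 0.33, exact permutation p = 0.3).

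**Figure D4:**
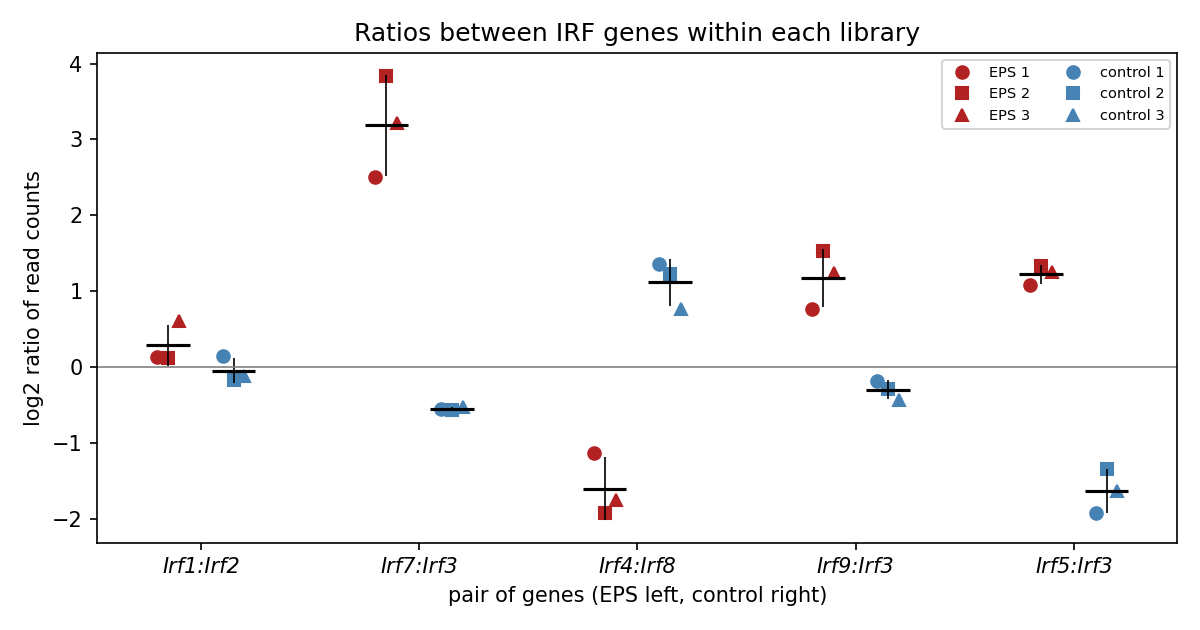
The log2 ratio of read counts for 5 pairs of IRF genes in each library, EPS in red at the left and control in blue at the right of each pair; black bars are the mean and SD of 3 libraries. The Irf7:Irf3 points lie between 2.51 and 3.83 in EPS and between -0.571 and -0.523 in controls, while the Irf1:Irf2 points of the groups overlap.

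Among genes that detect nucleic acids and endotoxin, upstream of the IRF proteins, 8 of 10 rose and none fell (median log2 fold change 1.83), with 9 higher without EPS 1. Tlr9, the receptor for bacterial DNA, had 70.3, 106 and 89.5 CPM in EPS, against 2.57, 3.83 and 2.45 CPM in controls (log2 fold change 4.90 ± 0.23). Zbp1, a sensor of Z-form nucleic acids, rose by 4.71 ± 0.28, and Ddx58, which encodes the RNA sensor RIG-I, by 1.61 ± 0.14, all called by edgeR with adjusted p between 3.01e-06 and 3.73e-05. Of the adaptors and kinases that lead from these receptors to IRF3, IRF5 and IRF7, 11 of 15 rose and 1 fell (median 0.99). Ikbke, for a kinase of IRF3 and IRF7, had 98.7, 72.3 and 83.4 CPM in EPS, against 18.6, 19.8 and 16.8 CPM in controls (2.20 ± 0.14). Traf3 and Irak4, for a signalling scaffold and a receptor-linked kinase, rose by 1.25 ± 0.10 and 1.41 ± 0.13. The gene that fell was Mavs, the adaptor of the RNA sensors (-0.54 ± 0.11; it was not called with library totals), named after its value was seen.

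Of the interferon receptor chains and the JAK and STAT proteins that work with them, 7 of 9 rose and none fell (median 1.05). Jak2 averaged 59.8 ± 1.55 CPM in EPS and 18.6 ± 1.28 CPM in controls (SD, n = 3 each; log2 fold change 1.69 ± 0.10). Jak1 and Ifngr2, a chain of the interferon gamma receptor, rose by 1.10 ± 0.09 and 1.25 ± 0.11. Stat2, for a partner of IRF9 in ISGF3, named after its value was seen, rose by 1.69 ± 0.20. All 9 genes for proteins that bind DNA with IRF4 or IRF8 rose (median 3.52). Spib, an Ets factor of B cells and plasmacytoid dendritic cells, had 136, 111 and 167 CPM in EPS, against 1.93, 0.793 and 1.65 CPM in controls (6.56 ± 0.31). Spi1, which encodes PU.1, rose by 3.52 ± 0.18, and Ikzf1, which encodes Ikaros, by 4.46 ± 0.21.

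Of 8 genes for repressors and feedback inhibitors, 5 rose and none fell (median 0.77). Only 4 rose with controls 1 and 2 averaged, and without EPS 2, EPS 3, control 1 or control 2. Without EPS 3, 1 was lower. Trim30a had 76.2, 118 and 92.8 CPM in EPS, against 9.78, 13.2 and 16.9 CPM in controls (2.85 ± 0.24). Usp18, which removes ISG15 from proteins and damps the type I interferon receptor, rose by 3.01 ± 0.43, and Trim21, for a cytosolic antibody receptor, by 1.23 ± 0.17. All 18 targets of ISGF3 and IRF7 rose (median 2.30; 17 with limma-voom, with controls 1 and 2 averaged, and without control 1 or control 2), as did 16 of 17 targets of IRF1 (median 1.79). The groups overlapped for Mx2, named after its values were seen, at 3.60, 18.2 and 10.3 CPM in EPS, against 2.50, 2.58 and 3.64 CPM in controls. Oas1a, which starts the breakdown of viral RNA, had 29.0, 62.2 and 61.2 CPM in EPS, against 4.36, 3.17 and 3.84 CPM in controls (3.75 ± 0.33). Parp14 rose by 1.91 ± 0.11 and Bst2, for the virus-tethering protein tetherin, by 1.93 ± 0.22. Among IRF1 targets, the chemokine gene Cxcl10 rose by 4.78 ± 0.27, the class II transactivator gene Ciita by 3.62 ± 0.20 and the peptide transporter gene Tap1 by 2.48 ± 0.17. These counts stand beside 29.2% of all genes tested. The interferon genes themselves, among them Ifnb1 and Ifng, were not analysed here.

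**Figure D5:**
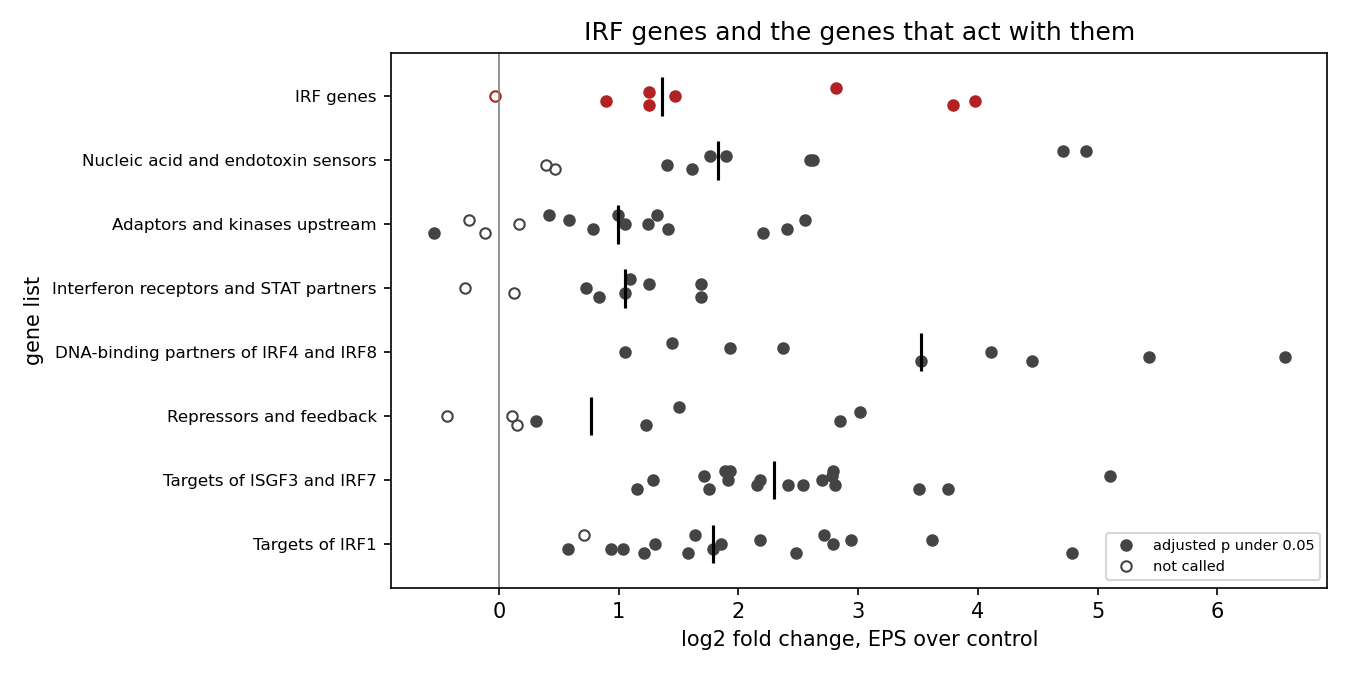
Log2 fold change, EPS over control, of the 8 IRF genes (red) and of 7 lists of genes that act with them (grey); filled points passed edgeR's test, open points did not, and black lines are medians. The DNA-binding partners of IRF4 and IRF8 have a median of 3.52, and the 18 targets of ISGF3 and IRF7 all lie above 0.

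Within EPS, the libraries did not line up the same way for each member, and an order over 3 libraries is given as a description only. The targets of ISGF3 and IRF7 summed to 740.4, 1654 and 1169 CPM in EPS 1 to 3, the order of the Irf7 levels, against 253 to 258 CPM in controls. B cell markers summed to 928, 567 and 883 CPM in EPS 1 to 3, against 7.40 to 12.8 CPM in controls. Plasma cell markers summed to 1393, 908 and 1030.0 CPM in EPS, against 279 to 331 CPM in controls, and macrophage and monocyte markers to 3994, 3272 and 3452 CPM in EPS, against 606 to 682 CPM in controls. All 3 sums stood in the order of the Irf4 levels, but the single markers of each list did not all follow it. Xbp1 (761, 338 and 410 CPM in EPS 1 to 3) and Lyz2 (2166, 1393 and 1648 CPM) had this order. Jchain (491, 488 and 526 CPM) and Csf1r (533, 547 and 521 CPM) did not. In EPS 1, the library richest in pancreas genes, Xbp1 and Lyz2 each had the highest level of its list. The part of pancreas tissue in the plasma cell and macrophage sums was not tested. Xbp1, Lyz2, Jchain and Csf1r were named after their values were seen. The T cell markers (206, 289 and 440.0 CPM in EPS, 5.50 to 10.1 CPM in controls), the conventional dendritic cell markers (364, 448 and 540.4 CPM in EPS, 56.0 to 68.2 CPM in controls) and the neutrophil markers (596, 824 and 1968 CPM in EPS, 4.23 to 5.29 CPM in controls) were lowest in EPS 1 and highest in EPS 3, as were Irf1, Irf2, Irf5, Irf8 and Irf9. Single neutrophil and conventional dendritic cell markers did not all follow that order. Cxcr2 was lowest in EPS 2 and Wdfy4 highest in EPS 1, both named after their values were seen. All 7 B cell, 7 plasma cell, 6 T cell and 8 neutrophil markers rose, as did 6 of 8 conventional dendritic cell and 8 of 10 macrophage and monocyte markers. Of all genes tested, 29.2% were called higher. No marker of these lists had a count of 0 in all controls. The part of these cells in the rise of the members was not tested.

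Some markers of the dendritic cells that need IRF8 were also higher in EPS. Siglech, a receptor of plasmacytoid dendritic cells, had 8.38, 31.8 and 22.6 CPM in EPS, against 1.86, 1.72 and 1.12 CPM in controls (log2 fold change 3.74 ± 0.52). Xcr1 and Clec9a, receptors of type 1 conventional dendritic cells, rose by 3.39 ± 0.51 and 1.495 ± 0.38, and both were highest in EPS 2, unlike Irf8. The conventional dendritic cell markers not called were Cd209a (0, 1.93 and 3.77 CPM in EPS, against 4.57, 5.22 and 8.73 CPM in controls; log2 fold change -1.67 ± 0.98) and Zbtb46 (-0.23 ± 0.15). Of 6 plasmacytoid markers, 5 rose, and the one that was not called, Klk1, had 4547 CPM in EPS 1 against 8.55 and 15.5 CPM in EPS 2 and 3 and 7.94 to 65.4 CPM in controls, and was high in the libraries where the pancreas genes were high. With Klk1 the list summed to 125 to 4640 CPM in EPS and 11.6 to 70.7 CPM in controls. These markers were named after their values were seen. All 8 fat cell and 6 blood endothelial markers fell (endothelial sum 742 to 941 CPM in EPS and 1767 to 1828 CPM in controls), 3 of 6 fibroblast markers rose (sum 2852 to 5140.0 CPM in EPS and 1791 to 1854 CPM in controls), and none of the 12 pancreas markers was called (1 was lower without EPS 1). Beside these counts, 29.2% of all genes tested were called higher and 30.4% lower.

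The genes whose pattern over the 6 libraries was nearest to each member were found by the root mean square distance of centred log2 CPM, over 12040 genes. For Irf7 these were Cd209b, a lectin receptor of macrophages, and the oligoadenylate synthetase genes Oas1a and Oasl1, at distances of 0.084, 0.15 and 0.16. Cd209b had 90.4, 238 and 192 CPM in EPS, against 12.8, 13.6 and 14.0 CPM in controls, and its EPS libraries stood in the order of Irf7. Nearest to Irf8 were Myo1g, Selplg and Was (0.084 to 0.11), genes of blood cell motility and adhesion, and nearest to Irf5 were Stx11, Rab20 and Def6 (0.095 to 0.12). Irf9 lay nearest to Uba7, which activates ISG15 for its transfer to proteins, then to Lgals3 and Zscan2 (0.067 to 0.11). Irf4 lay nearest to Lmo2, Ppat and Pde4b (0.077 to 0.088), Irf1 to Cyb561a3, Rap2b and Snrnp25 (0.043 to 0.061), Irf2 to Fnbp1, Msn and Pip5k1c (0.044 to 0.048), and Irf3 to Mpnd, Psma7 and Retreg3 (0.029 to 0.036). With 6 libraries in 2 groups, the distance mostly reflects the size of the change between groups.

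ISRE core letters were found in the promoters of 8 of the 13 targets of ISGF3 and IRF7 that the RefSeq table holds, 4 of 12 IRF1 targets and 1 of 8 members, against 3.92% of 11027 tested genes. GAS letters were found in 3 of those 13 targets, 1 of 12 IRF1 targets and 3 of 8 members, against 8.35% of tested genes. These are counts of letter matches, with no test.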

How the data were processed

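Raw counts of reads per gene symbol, not normalized, were deposited for 3 EPS and 3 control libraries of peritoneum, as whole numbers with differing totals. Per the labels' protocols, polyadenylated RNA was sequenced after random-primed cDNA synthesis and PCR. The genome build was mm10, per the submitters' processing notes, and the sources used here give no aligner, counter or annotation. The members, gene lists and tests were chosen with earlier results of these data known. Genes named are the members, genes overlapping them, the up to 3 called genes of lowest adjusted p in each pathway list with tested genes, and the 3 nearest in pattern among genes with a mean count of at least 50. Genes named outside this rule are marked so.

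Genes were kept by filterByExpr, libraries scaled by TMM factors, and the groups compared by edgeR's quasi-likelihood test (edgeR 4.0.16, R 4.3.3) without covariates, with Benjamini-Hochberg adjustment over 13980 genes. The ± of a CPM is an SD over 3 libraries and that of a log2 fold change a standard error. Gene positions and lengths are from GENCODE vM21 (GRCm38, the assembly of mm10), promoters from RefSeq. Ratios used a prior count of 0.5 and were tested by exact permutation. On simulated counts for this comparison the test recovered 8 of 67 genes changed 1.5-fold, 37 of 67 changed 2-fold and 66 of 66 changed 4-fold, with 10 false calls among 13963. The simulation changed 200 genes and gave all genes and libraries the same dispersion, whereas 59.6% of genes were called in the data. Its recovery rates need not hold for the real counts. Alternatives were RLE and upper-quartile factors, library totals, no filter, DESeq2 1.42.0, limma-voom (limma 3.58.1), each library left out, controls 1 and 2 averaged, pancreas genes left out and a replicate block. Averaging the controls with EPS 1 left out was added after seeing the data.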

Additional observations from a re-analysis of the deposited data

How the results depend on the processing

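Irf1, Irf2, Irf4, Irf5, Irf7, Irf8 and Irf9 were higher in EPS and called under all 16 alternatives fitted, and no member was called lower. Over these, the log2 fold change ran from 1.02 to 1.70 for Irf1, 0.85 to 1.33 for Irf2, 1.18 to 1.67 for Irf4, 2.66 to 3.26 for Irf5, 3.52 to 4.27 for Irf7, 3.82 to 4.43 for Irf8 and 1.34 to 1.94 for Irf9. Irf3 was never called (adjusted p 0.111 to 0.968) and its sign changed: it stood at 0.0255 with DESeq2, 0.0251 with RLE factors, 0.00817 with upper-quartile factors, 0.40 with library totals, 0.0722 without EPS 1 once controls 1 and 2 were averaged, and between -0.14 and 0.0807 with a library left out. With library totals, 2182 genes were lower in place of 4245 and 72.2% of calls were higher in place of 49.1%, since that scaling raises the median gene by 0.425. The 5 ratios kept their sign under every alternative run on them. Same-numbered libraries deviated from their group means with r = 0.20, -0.10 and 0.24, and libraries of unlike number with r from -0.32 to 0.19. Deviations from a mean of 3 libraries are tied to each other, so these values cannot decide whether the numbers pair libraries. With the replicate block 3947 genes were higher and 4166 lower, the same 7 members were called, and 1 repressor gene was lower, as it was without EPS 3.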
